A study of Mus musculus with 16 samples.

Results

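Chemokines and chemokine receptors were followed in bulk RNA sequencing of transplanted mouse glioblastomas. The genes were taken by symbol, as every Ccl, Cxcl, Ccr or Cxcr gene with a number and at most 1 letter after it, a rule that uses no measured value. From the table of all libraries 40 of 26466 genes are described, 27 ligands (16 Ccl and 11 Cxcl) and 13 receptors (8 Ccr and 5 Cxcr). Cxcl15 and Cxcr3 were read only from tables of 1 tumour kind. Ccl19, Ccl20, Ccl21a, Ccl21b, Ccl21c, Ccl24, Ccl26, Ccl27, Ccl27b, Ccr8 and Cxcl5 were not analysed here.

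The 16 tumours belonged to 2 lineage-based glioblastoma models, called Type 2 and Type 1 in the labels, each with or without depletion of its macrophages and microglia, together called tumour-associated macrophages or TAMs. There were 4 Type 2 TAM depleted, 4 Type 2 Control, 3 Type 1 TAM depleted and 5 Type 1 Control tumours, all transplanted. How TAMs were depleted, what the Control tumours received, the host strain, and the sex and age of the animals are among the facts not given in the sources used here. No label ties a tumour to an animal or a culture, so a p-value reflects the spread of these samples, which may be technical.

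Chemokines are small secreted proteins that guide migrating cells, and most of them are named for the spacing of their first cysteines (CC or CXC). Their receptors are G protein-coupled, and several ligands usually share 1 receptor. In brain tumours the best known axes are Ccl2 with Ccr2, which draws monocytes in from the blood, Cxcl12 with Cxcr4, which acts on tumour cells, vessels and leukocytes, and the interferon-induced Cxcl9, Cxcl10 and Cxcl11, which attract T cells through Cxcr3.

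Libraries held 4.21 to 18.3 M (mega) reads, and 1 read was worth 0.556 to 3.57 normalized counts, the unit used below (reads divided by the authors' size factor). Values of a group are listed in replicate order. Reads of olfactory and vomeronasal receptor genes, which act in the nose, divided the libraries. They made up 2717 to 8650 reads per M in 9 libraries (high background) and 97.0 to 811 in 7 (low background). In Type 2 each group held 2 libraries of each set (TAM depleted 1 and 2 and Control 2 and 4 were low). In Type 1 all TAM depleted libraries were low and all Control libraries high, so there depletion and background cannot be told apart. The summed level of 12 macrophage and microglia markers was 1560 to 3150 in Type 2 TAM depleted and 3159 to 8811 in Type 2 Control tumours, without overlap. It was 1253 to 3242 in Type 1 TAM depleted and 1543 to 3277 in Type 1 Control tumours. None of these 12 markers was at 0 throughout a group, nor was any of 6 glioma cell markers.

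Per kilobase of exon, Cxcl14 averaged 131 normalized counts over all 16 libraries, the highest level, followed by Cxcl9 with 125, Cxcr4 with 105, Cxcl10 with 79.0 and Ccl27a with 65.1. Ccl8, Ccl5 and Ccl12 followed with 57.9, 55.8 and 55.6. Cxcr4, the receptor of Cxcl12, lay above the 95th percentile of the 963 sensory receptor genes with an annotated length in 16 of 16 libraries. Ccl2, Ccl5, Ccl12, Ccl17, Ccl25, Ccl27a, Cxcl10 and Cxcl14 did so in 15 libraries. At the other end, Ccr3 and Cxcl3 passed that percentile in 0 libraries and Cxcr2 in 1, so their reads cannot be told from background. Between 27 and 37 members were above it in a low-background library, against 11 to 30 in a high-background one. Ccr3, Ccr4, Ccr6, Ccr9, Cxcl3 and Cxcr2 had every high-background library above every low-background one. These genes at the bottom were singled out after their values were seen.

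**Figure D1:**
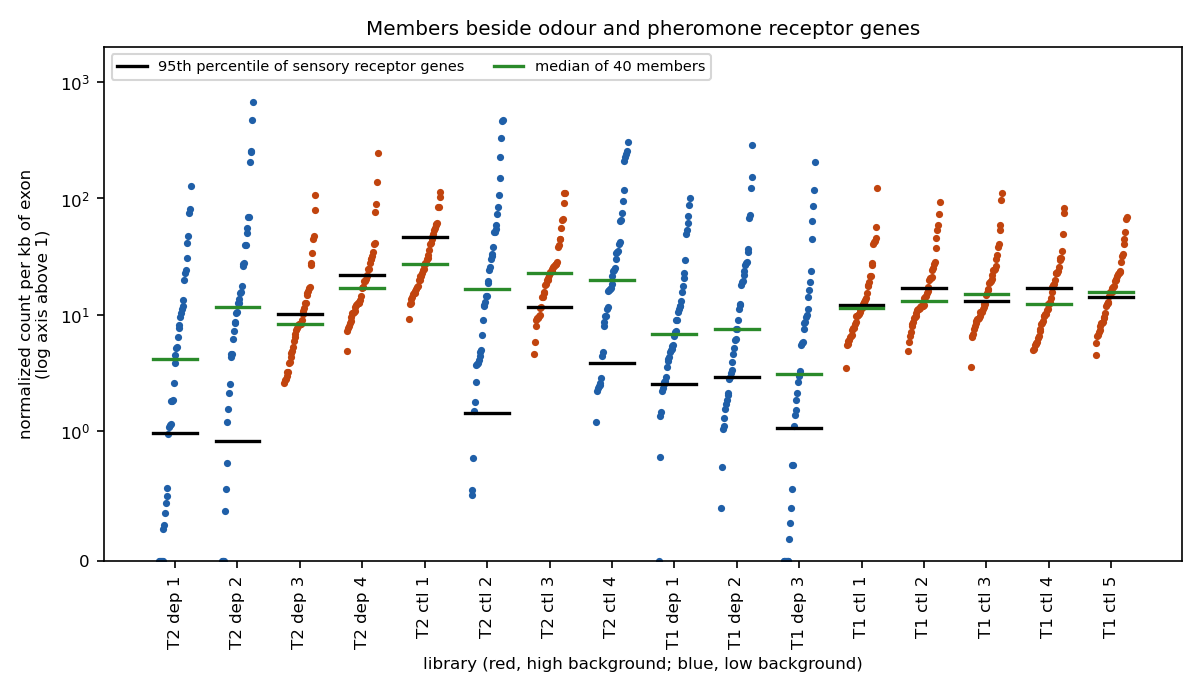
Normalized count per kilobase of exon (log axis above 1) of the 40 members in each library, 1 point per gene, with the members' median (green) and the 95th percentile of olfactory and vomeronasal receptor genes (black). The median of the members is on either side of the black line in high-background libraries (red), from 27.4 against 46.6 in Type 2 Control 1 to 22.7 against 11.8 in Type 2 Control 3. It is above the line in every low-background library (blue), where 27 to 37 members pass it.

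**Figure D2:**
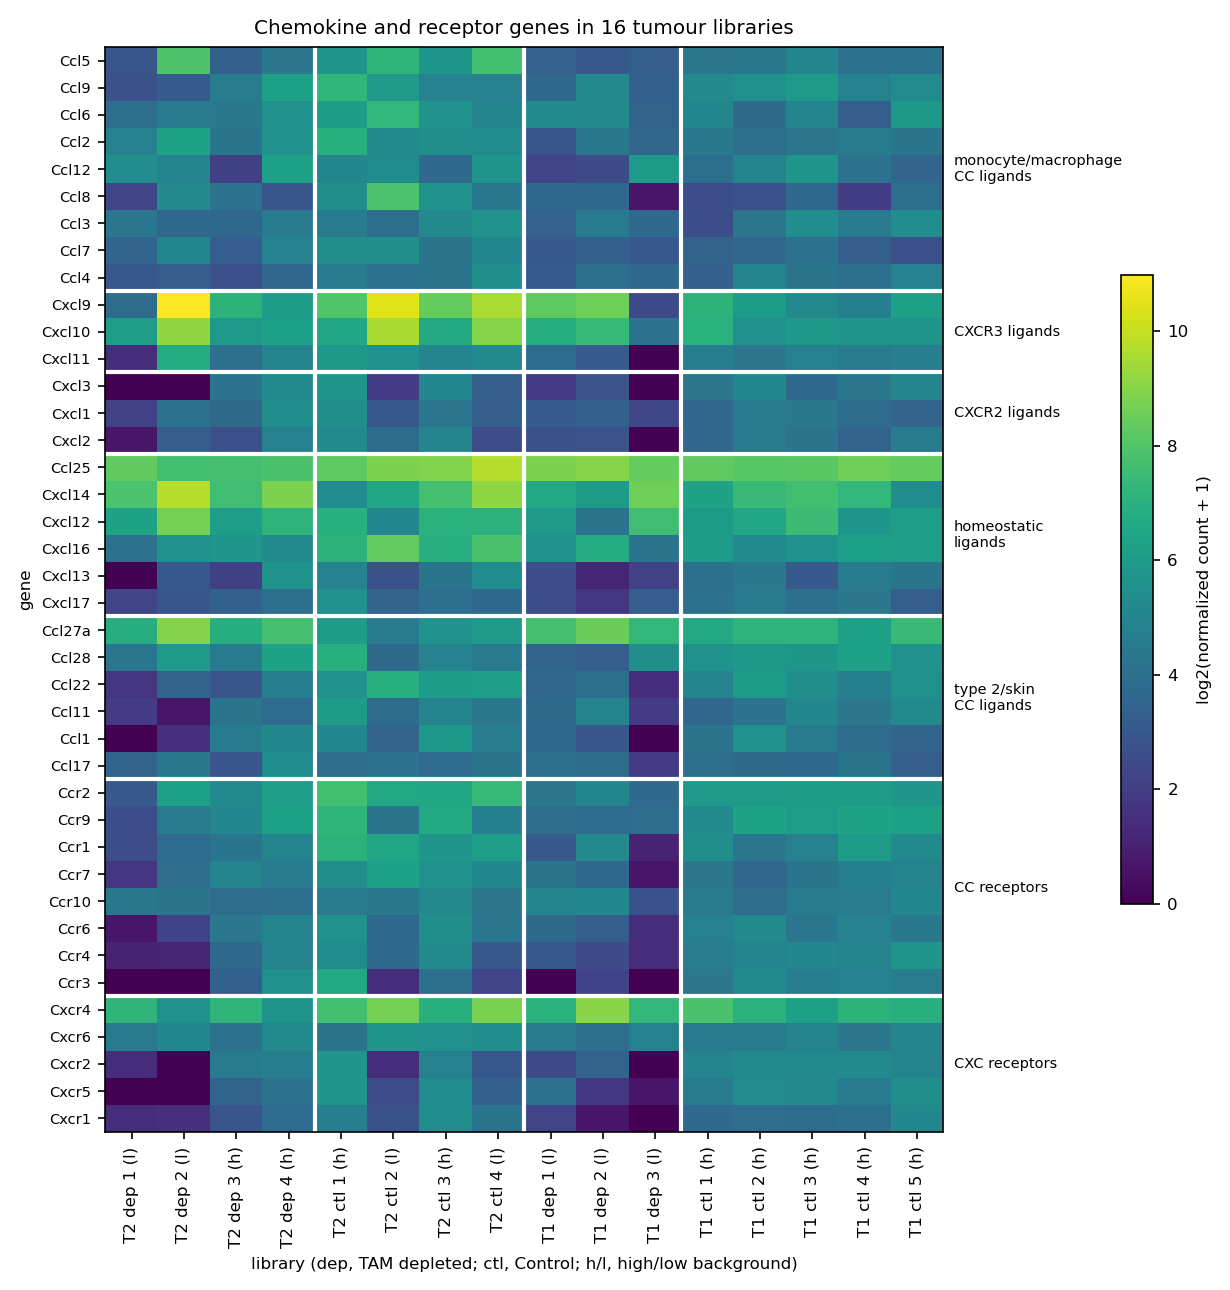
Level of each member as log2(normalized count + 1), by library (columns, TAM depleted before Control in each tumour kind) and by role (rows). Ccl25, Cxcr4 and Ccl27a are high in most libraries, while Cxcl9 and Cxcl10 are highest in Type 2 TAM depleted 2, Type 2 Control 2 and Type 2 Control 4.

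The first question was what happened to these genes when TAMs were depleted in Type 2 tumours. The ligands Cxcl16 and Ccl22 fell, and the ligand Ccl27a rose, by the test used. Most other members had lower means without passing the test. Of all 40, 36 had a negative log2 fold change, with a median of -1.35 beside -0.21 over all 26463 genes tested (-0.85 without Type 2 TAM depleted 1). The 3 calls compare with 3.61% of all genes called by limma-trend at an adjusted p under 0.05 (627 higher and 329 lower, or 674 and 618 with upper quartile scaling). At an unadjusted p under 0.05, 15 members were lower (8.16% of all genes) and 1 was higher (9.81%). In bulk tissue, fewer cells of a type and less RNA per cell cannot be told apart.

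Cxcl16 encodes a ligand that is made as a membrane protein and binds Cxcr6 on T cells. It had 15.9, 46.6, 52.9 and 37.7 normalized counts in Type 2 TAM depleted tumours, against 136, 323, 121 and 228 in Type 2 Control tumours. The highest depleted value was below the lowest control, and the log2 fold change was -2.38 ± 0.51 (SE, limma-trend adjusted p = 0.0219). Cxcl16 (chr11:70453983-70459984, minus strand) shares 552 bases, 18.3% of its exon length, with Zmynd15 on the other strand, and the library kit does not mark strand. Zmynd15 fell as well, with 8.53, 23.3, 35.6 and 26.2 normalized counts in depleted tumours, against 60.8, 204, 89.0 and 193 in controls (log2 fold change -2.48, limma-trend adjusted p = 0.0194). Reads of both genes cannot be fully told apart. Cxcr6 itself, at 21.6, 34.1, 16.2 and 37.7 in depleted and 17.9, 50.1, 45.4 and 41.4 in control tumours, overlapped between the groups (log2 fold change -0.46, limma-trend adjusted p = 0.585).

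Ccl22, which dendritic cells and macrophages secrete and which attracts regulatory T cells through Ccr4, had 2.28, 10.8, 6.47 and 24.6 normalized counts in Type 2 TAM depleted tumours, from 4, 18, 6 and 15 reads. In Type 2 Control tumours it had 46.5, 121, 65.9 and 70.8 normalized counts, from 13, 217, 74 and 125 reads. The groups did not overlap, and the change of -2.97 ± 0.63 on the log2 scale (SE, limma-trend adjusted p = 0.0217) was the most negative among the named members. Per kilobase, Ccl22 passed the sensory receptor percentile in 10 of 16 libraries, so in the others its reads cannot be told from background.

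Ccl27a moved the other way. This ligand, known from keratinocytes of the skin and sensed by Ccr10, had 113, 492, 113 and 215 normalized counts in Type 2 TAM depleted tumours, against 64.3, 21.7, 49.0 and 60.6 in Type 2 Control tumours. All depleted tumours were above all controls (log2 fold change 2.06 ± 0.47, SE, limma-trend adjusted p = 0.0277). Its exons share 8 bases with Il11ra1 on the other strand, which had a log2 fold change of -0.10 (limma-trend adjusted p = 0.865). Ccl27a (chr4:41769467-41774247, minus strand) has similarly named copies in the annotation, such as Ccl27b at chr4:42655251-42656005, so the assignment of its reads is uncertain. Its receptor Ccr10, named after its values were seen, had 20.5, 17.9, 14.0 and 14.8 normalized counts in depleted and 21.4, 20.6, 34.7 and 19.3 in control tumours, with overlap between the groups.

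All 3 calls were lost without Type 2 Control 3. Those of Cxcl16 and Ccl22 were also lost without Type 2 TAM depleted 1, and that of Ccl27a without Type 2 TAM depleted 2, in the fit with the replicate block (adjusted p = 0.0703) and in limma-voom (adjusted p = 0.0589). No member passed among the high-background or the low-background libraries alone, or in the table of Type 2 libraries alone. Over all 29 alternative fits, the values as deposited included, the log2 fold changes ranged from -3.26 to -1.50 for Cxcl16 and -3.91 to -1.70 for Ccl22. For Ccl27a they ranged from 1.46 to 2.66. With background set as a term, 10 members passed, 9 lower and 1 higher, in a fit that called 2635 of 26463 genes, against 956 in the fit without that term.

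**Figure D3:**
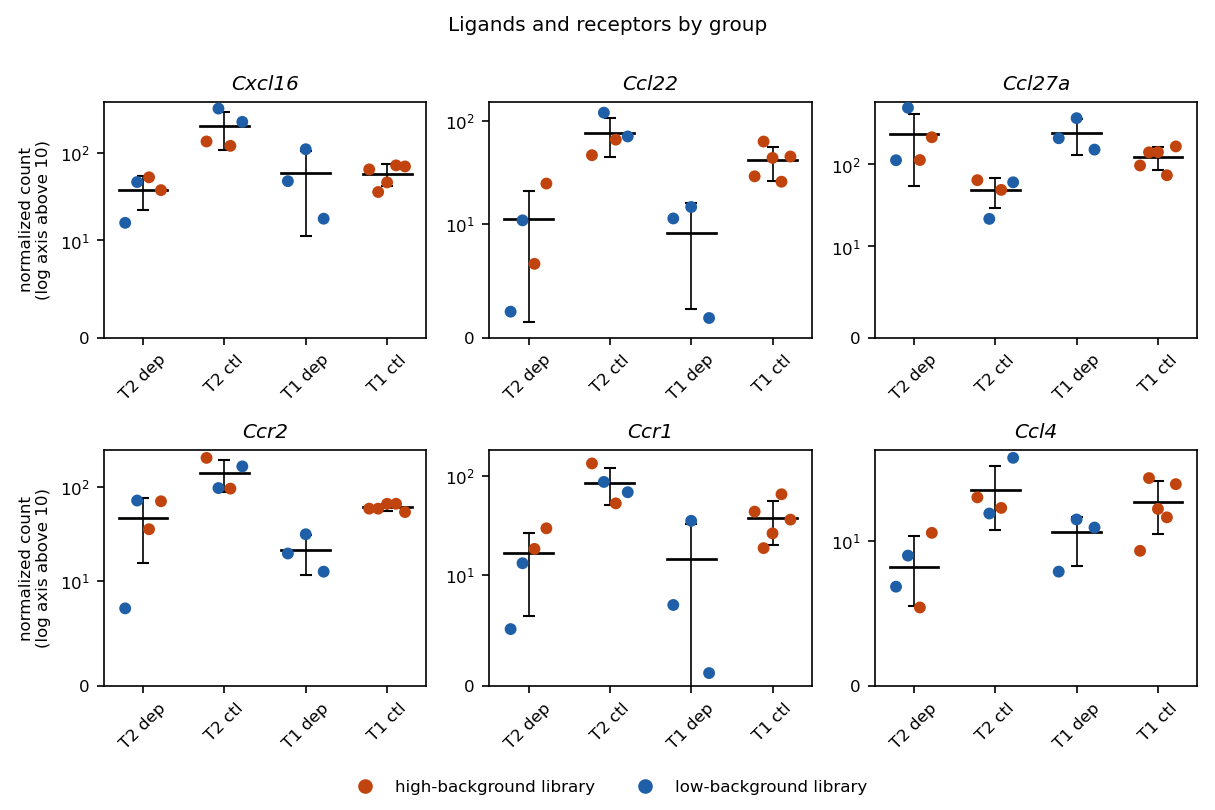
Normalized counts (log axis above 10) of Cxcl16, Ccl22, Ccl27a, Ccr2, Ccr1 and Ccl4 in the 4 groups, 1 point per tumour, with mean ± SD cut off at 0. In Type 2 the TAM depleted (T2 dep) points of Cxcl16, Ccl22, Ccr2, Ccr1 and Ccl4 lie below all Control (T2 ctl) points, and those of Ccl27a above them, in both background sets.

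Within each background set, both depleted tumours were below both controls for 14 members (35%, against 10.8% of all genes) and above them for Ccl27a (2.5%, against 9.51%). Background was not even inside the sets. In the low set it was 156 and 97.0 receptor gene reads per M in depleted tumours, against 309 and 811 in controls. In the high set it was 2717 and 5931, against 8650 and 4831. Its part in these counts was not tested. Over the whole groups, 6 members did not overlap and were lower (Ccl4, Ccl22, Ccr1, Ccr2, Ccr7 and Cxcl16, where the share of all genes was 3.39%), and 1 was higher (Ccl27a, 3.86%).

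The receptors as a group had negative log2 fold changes in 13 of 13 cases, with a median of -1.60. By limma-trend 0 passed, with 6 at an unadjusted p under 0.05, and limma-voom called 2. Ccr2, which marks monocytes that answer Ccl2, had 7.40, 71.8, 35.6 and 70.5 normalized counts in Type 2 TAM depleted tumours, against 204, 97.4, 96.2 and 165 in Type 2 Control tumours. Its groups did not overlap (log2 fold change -1.92 ± 0.55, SE, limma-trend adjusted p = 0.0604). Ccr1, a myeloid receptor of Ccl3, Ccl5, Ccl6 and Ccl9, had 5.12, 13.2, 18.3 and 29.5 normalized counts in depleted tumours, against 132, 86.3, 52.5 and 68.0 in controls. It too was lower in every depleted tumour (log2 fold change -2.43 ± 0.71, SE, limma-trend adjusted p = 0.0659). With background set as a term both passed, at limma-trend adjusted p = 0.0311 for Ccr2 and 0.0323 for Ccr1. Per kilobase, Ccr2 passed the sensory receptor percentile in 7 low-background libraries but only 1 high-background one, and Ccr1 in 6 and 4. In the other libraries their reads cannot be told from background.

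Cxcr4, the most abundant receptor, had 147, 47.8, 143 and 50.8 normalized counts in Type 2 TAM depleted tumours, against 204, 407, 120 and 436 in Type 2 Control tumours. Control 3 lay below depleted 1 and 3, so the groups overlapped (log2 fold change -1.59 ± 0.53, SE, limma-trend adjusted p = 0.113). Ccr7, which guides dendritic and T cells to lymph nodes, had 2.28, 14.4, 29.1 and 22.9 in depleted and 42.9, 76.2, 49.0 and 34.0 in control tumours (log2 fold change -1.84, limma-trend adjusted p = 0.202). Ccr6, Ccr9, Cxcr2 and Cxcr5, receptors of lymphocytes and, for Cxcr2, of neutrophils, had log2 fold changes of -1.71, -1.09, -1.08 and -2.35, none of which passed. In every one of these 4 genes the depleted and control ranges overlapped over the whole groups. Per kilobase, Ccr6, Ccr9, Cxcr2 and Cxcr5 passed the sensory receptor percentile in 6, 3, 1 and 2 of 16 libraries. Elsewhere their reads cannot be told from background. Within each background set, both depleted tumours were below both controls for Ccr6 and Cxcr5, as for 10.8% of all genes, but not for Ccr9 and Cxcr2. With background set as a term Cxcr5 passed, in a fit that called 2635 of 26463 genes. Ccr9 shares 1932 bases, 18.8% of its exon length, with AC165425.1 on the other strand, so its reads are uncertain.

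The CC ligands that attract monocytes and macrophages had negative log2 fold changes in 9 of 9 cases (median -1.34), and 0 passed, with 5 at an unadjusted p under 0.05. With quantile normalization 8 of 9 were negative. Ccl2, the main monocyte attractant of Ccr2, had 26.2, 78.9, 18.3 and 45.9 normalized counts in Type 2 TAM depleted tumours, against 118, 36.7, 43.6 and 39.1 in Type 2 Control tumours. Apart from Control 1 the values interleaved, and the log2 fold change was -0.51 ± 0.50 (SE, limma-trend adjusted p = 0.622). The other Ccr2 ligands, Ccl7 and Ccl12, had log2 fold changes of -0.90 and -0.31 (limma-trend adjusted p = 0.390 and 0.869).

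Ccl4, a ligand that attracts macrophages and T cells, had 6.83, 8.97, 5.39 and 11.5 normalized counts in depleted tumours, against 21.4, 16.1, 17.8 and 43.1 in controls. Its ranges did not meet, but the change missed the threshold (log2 fold change -1.42 ± 0.50, SE, limma-trend adjusted p = 0.129). Ccl3, its neighbour on chromosome 11, had 18.8, 12, 11.9 and 22.9 in depleted and 21.4, 14.5, 34.7 and 49.3 in control tumours, with overlap (log2 fold change -0.75, limma-trend adjusted p = 0.535). For Ccl8, which mouse Ccr8 senses, the control tumours were spread from 21.0 to 234, against 3.98 to 35.3 in depleted tumours (log2 fold change -2.19, limma-trend adjusted p = 0.179). Ccl6 and Ccl9, rodent ligands of Ccr1, had log2 fold changes of -1.34 and -1.52 (limma-trend adjusted p = 0.265 and 0.267).

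Among the homeostatic and mucosal ligands, 4 of 6 were lower and 2 higher (median -1.07), and only Cxcl16 passed. Ccl25, known from thymus and gut as the ligand of Ccr9, had 311, 203, 207 and 226 normalized counts in Type 2 TAM depleted tumours, against 304, 444, 483 and 878 in Type 2 Control tumours. Depleted 1 exceeded Control 1, and the other depleted tumours were below every control (log2 fold change -1.06 ± 0.29, SE, limma-trend adjusted p = 0.0522, or 0.0205 with background set as a term). Its exons share 204 bases, 2.74% of their length, with Elavl1 on the other strand, a broadly expressed RNA-binding protein gene. Elavl1 averaged 1581 normalized counts in depleted and 1592 in control tumours, and its log2 fold change was 0.07.

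Cxcl12, which stromal and vascular cells make, had 79.1, 412, 69.0 and 141 normalized counts in depleted tumours, against 125, 33.4, 128 and 132 in controls. Depleted 2 was the highest and Control 2 the lowest of the 8 tumours (log2 fold change 0.54 ± 0.69, SE, limma-trend adjusted p = 0.703). Cxcl14, a ligand of epithelia and brain, had 232, 857, 197 and 451 in depleted tumours, against 39.3, 94.6, 205 and 557 in controls. The ranges overlapped broadly (log2 fold change 1.33 ± 0.75, SE, limma-trend adjusted p = 0.375). Cxcl13, which attracts B cells through Cxcr5, had 0 to 47.5 normalized counts in depleted and 5.56 to 39.7 in control tumours.

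Cxcl1 and Cxcl2, neutrophil attractants of Cxcr2, passed the sensory receptor percentile in 7 and 4 of 16 libraries. Cxcl1 had 3.41, 16.1, 12.9 and 41 normalized counts in Type 2 TAM depleted tumours, against 42.9, 7.23, 18.7 and 9.07 in Type 2 Control tumours, and Cxcl2 had 0.569, 8.97, 5.39 and 26.2, against 35.7, 13.9, 29.4 and 5.10. Neither gene separated the groups. Cxcl15 had 0, 0, 11 and 16 reads in depleted and 20, 1, 30 and 2 reads in control tumours, low in each low-background library. The 9 members outside the naming rule, of which Ccr10 is given above, had log2 fold changes from -2.13 to -0.02, and 0 passed.

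**Figure D4:**
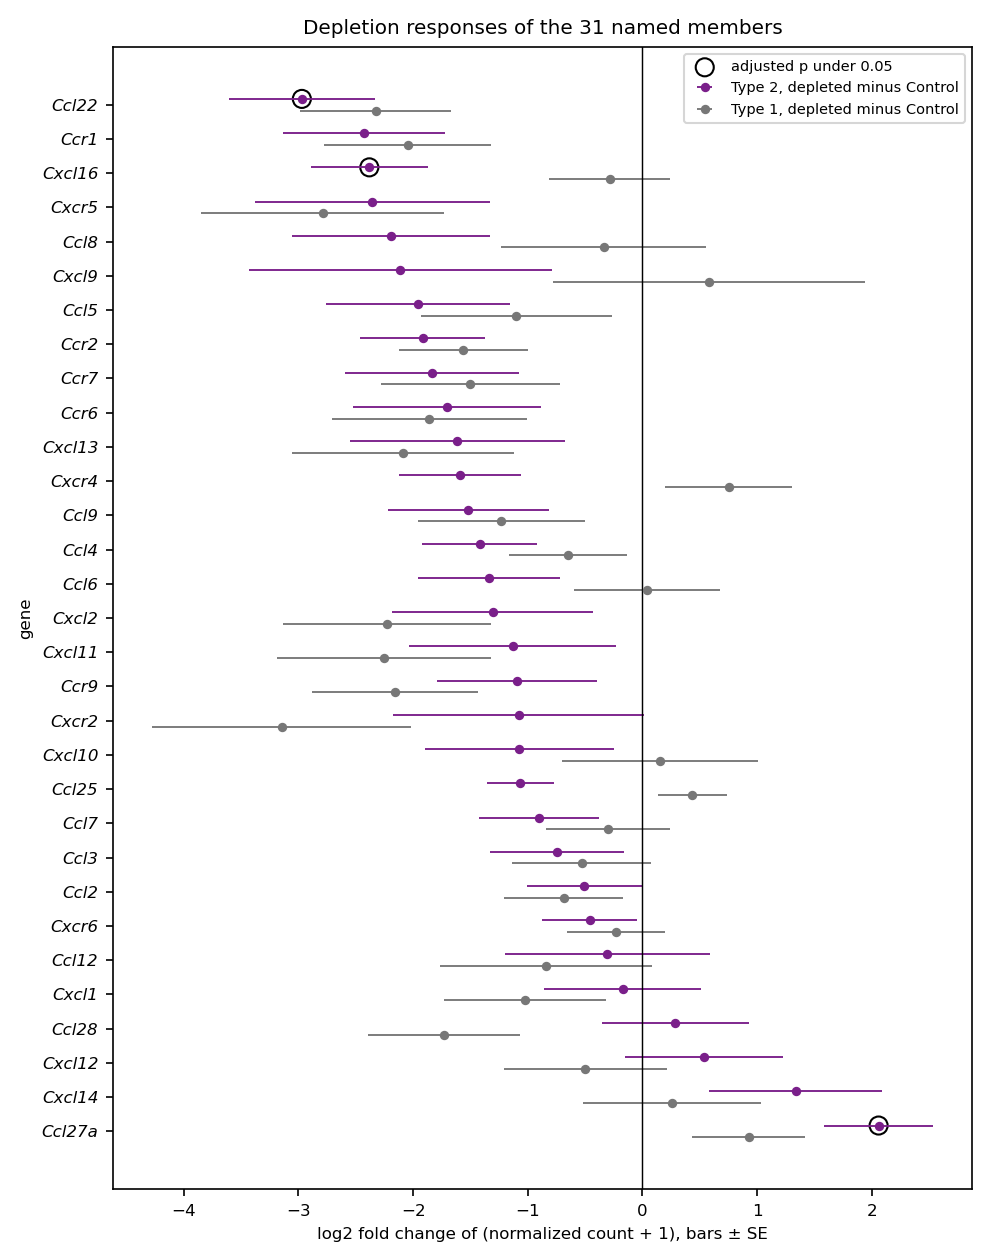
Log2 fold change after TAM depletion (points, bars ± SE) of the 31 members that the naming rule selected, in Type 2 (purple) and Type 1 (grey). Circles mark an adjusted p under 0.05, reached by Ccl22, Cxcl16 and Ccl27a in Type 2. Cxcr4, Ccl25, Cxcl9, Cxcl10 and Ccl6 are negative in Type 2 and positive in Type 1, and Ccl28 and Cxcl12 the other way round.

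Of 25 further genes of the pathway, 22 were tested after depletion in Type 2 tumours, 3 fell and 0 rose, where 3.61% of all genes were called. They act inside leukocytes downstream of these receptors. Pik3cg, the kinase that G protein-coupled receptors activate, had 72.2, 55.0, 70.1 and 148 normalized counts in depleted tumours, against 172, 268, 160 and 201 in controls. Dock2, which activates Rac in migrating leukocytes, had 87.0, 132, 127 and 264, against 236, 432, 339 and 363. Rac2, the Rac of blood cells, had 25.6, 59.8, 41 and 85.2, against 96.5, 185, 142 and 152. Pik3cg and Rac2 were lower in every depleted tumour, whereas Dock2 overlapped through depleted 4. The log2 fold changes were -1.28, -1.25 and -1.52 for Pik3cg, Dock2 and Rac2 (limma-trend adjusted p = 0.0362, 0.0427 and 0.0442). The list was even in direction, with 11 higher and 11 lower (median -0.01, beside -0.21 over all genes tested).

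Marker sums of several cell types differed between the Type 2 groups as well. Besides the macrophage and microglia markers above, 8 T cell markers summed to 44.4 to 374 in TAM depleted and 385 to 604 in Control tumours, without overlap. Neuron markers lay the other way, also without overlap, at 6678 to 56337 in TAM depleted and 755 to 5513 in Control tumours. Astrocyte markers summed to 8085 to 50959 in TAM depleted tumours (mean 23740), against 1576 to 9741 in Control tumours (mean 4586). The ranges overlapped for 5 of 6 monocyte markers, at 1635 to 8104 in TAM depleted and 3117 to 14029 in Control tumours, and for 6 microglia markers, at 732 to 1728 and 840 to 2635. B cell, endothelial and glioma cell markers and the 2 of 7 neutrophil markers measured overlapped too. The part of any of these cell types in the results was not tested.

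The interferon-induced ligands of Cxcr3 differed widely between tumours of the same group. Cxcl9 had 13.7, 2025, 136 and 65.6 normalized counts in Type 2 TAM depleted tumours, against 257, 1416, 335 and 768 in Type 2 Control tumours. Cxcl10 had 70.0, 576, 60.4 and 72.1, against 92.9, 741, 101 and 508. Depleted 2 stood far above the other depleted tumours in both genes and reached the level of Controls 2 and 4. Their log2 fold changes were -2.11 ± 1.32 and -1.07 ± 0.83 (SE, limma-trend adjusted p = 0.427 and 0.524). Cxcl10 shares 133 bases, 5.91% of its exon length, with Art3 on the other strand. Art3 had a log2 fold change of -1.49 (limma-trend adjusted p = 0.109).

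Cxcl11 had 1.71, 106, 15.1 and 29.5 normalized counts in Type 2 TAM depleted tumours, against 57.2, 46.2, 30.3 and 37.4 in Type 2 Control tumours. The annotation lists it as a polymorphic pseudogene, and 41.7% of its exon length is shared with the pseudogene Gm2673, so its reads are uncertain. Ccl5, a ligand made by T cells that interferon also induces, had 6.26, 239, 9.71 and 19.7, against 53.6, 145, 53.4 and 202 (log2 fold change -1.96 ± 0.80, SE, limma-trend adjusted p = 0.200). The same 3 tumours, Type 2 TAM depleted 2, Type 2 Control 2 and Type 2 Control 4, held the 3 highest values of Cxcl9, Cxcl10 and Ccl5 among all 16. All 3 are low-background libraries. Among the high-background libraries, both depleted tumours were below both controls for Cxcl9, Cxcl10, Cxcl11 and Ccl5, as for 22.3% of all genes. Among the low-background ones the depleted and control values of these genes were not separated.

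In those tumours the summed macrophage markers were 1624, 8811 and 6264, and the T cell markers 161, 604 and 385. Depleted 2 was thus 12th of 16 in macrophage markers and 13th in T cell markers while it was first in Cxcl9, Cxcl11 and Ccl5. Cxcl9 alone made up 36.5% of the summed level of all 40 members in that tumour, and 29.1% in Control 2.

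**Figure D5:**
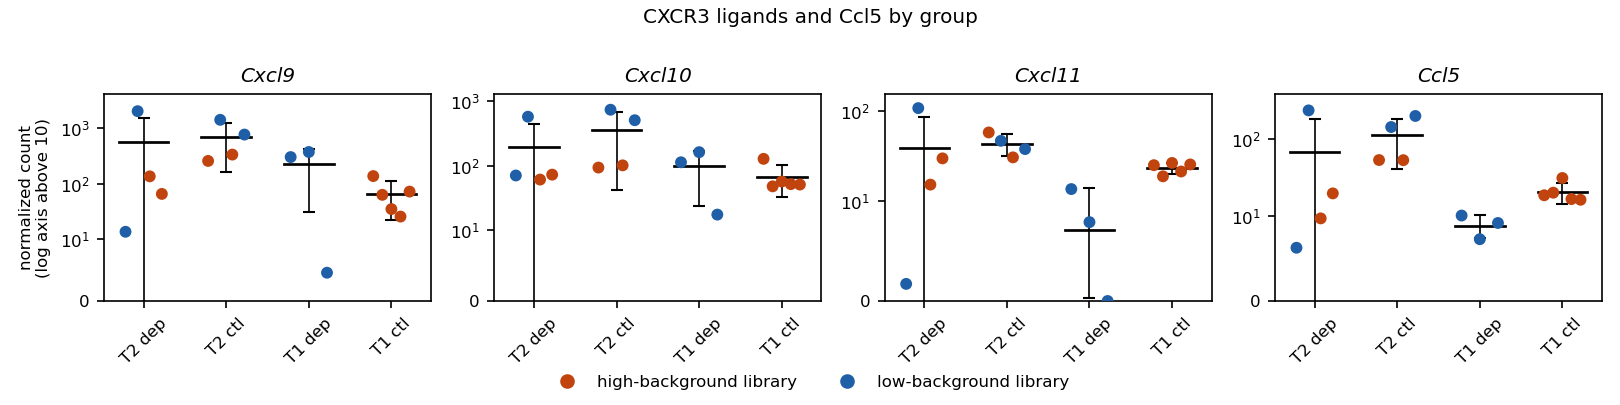
Normalized counts (log axis above 10) of Cxcl9, Cxcl10, Cxcl11 and Ccl5 in the 4 groups, 1 point per tumour coloured by background set, with mean ± SD cut off at 0. Type 2 TAM depleted 2 (2025 for Cxcl9, 576 for Cxcl10) is near the highest Control tumours, and the other depleted tumours are below it.

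Cxcl9 (chr5:92321347-92328079), Cxcl10 (chr5:92346638-92348889) and Cxcl11 (chr5:92359544-92365485) stand side by side on the minus strand. The 250 bases before the start of Cxcl10 and Cxcl9 are shown because these 2 genes were highest in the same 3 tumours (RefSeq, GRCm38.p6, 5′ to 3′, minus strand, chr5:92348890-92349139 and chr5:92328080-92328329). Capitals mark matches, on either strand, to an interferon-stimulated response element (GAAA, any 2 bases and GAAA again), a gamma-interferon activated site (TTCNNNGAA) or the kappaB consensus.
Cxcl10: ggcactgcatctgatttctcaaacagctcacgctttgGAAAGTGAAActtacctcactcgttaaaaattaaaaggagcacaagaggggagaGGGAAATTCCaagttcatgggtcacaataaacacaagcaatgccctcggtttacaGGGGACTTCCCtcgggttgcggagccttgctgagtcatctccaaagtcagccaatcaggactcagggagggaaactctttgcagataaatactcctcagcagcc
Cxcl9: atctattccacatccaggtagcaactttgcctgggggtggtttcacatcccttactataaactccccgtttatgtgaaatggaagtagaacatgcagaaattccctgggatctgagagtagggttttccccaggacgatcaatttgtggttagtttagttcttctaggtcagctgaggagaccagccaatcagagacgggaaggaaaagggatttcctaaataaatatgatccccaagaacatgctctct
In Cxcl10 the response element lies 213 to 204 bases before the start, and kappaB matches lie at 159 to 150 and, overlapping each other, at 104 to 95 and 103 to 94. In Cxcl9 none of the 3 motifs had a match in this window. Of 32851 promoters of this length, 2.98% held the response element, 7.25% the kappaB consensus and 7.02% the gamma-interferon activated site. Among 29 members with a promoter sequence, 2 held the first (Cxcl10 and Cxcl14), 9 the second and 3 the third. These counts are per gene, with a match in any of its promoters (33 in all), while the percentages are per promoter. A match describes letters and not a bound site.

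In Type 1 tumours the same comparison called 0 members and 0 of all genes (0%) by limma-trend, while 16 members were lower and 0 higher at an unadjusted p under 0.05 (24.5% and 5.81% of all genes). In limma-voom 0 genes passed as well. In total 33 of 40 log2 fold changes were negative, with a median of -1.06 beside -0.06 over all genes tested. With quantile normalization the direction turned, to 22 members higher and 18 lower. With upper quartile scaling 36 were lower (median -1.42), and with background set as a term, where the fit borrows the background effect from Type 2, 28 were (median -0.48). Several marker sums differed here too. B cell markers summed to 22.3 to 120 in Type 1 TAM depleted and 191 to 292 in Type 1 Control tumours, and the 2 neutrophil markers to 26.9 to 65.1 and 68.2 to 160, both without overlap. T cell markers summed to 26.9 to 226 and 222 to 335, and monocyte markers to 2215 to 4460 and 1303 to 2357, with ranges that just met. In these sums as well, depletion and background cannot be told apart, and their part in the result was not tested. There were 17 members whose groups did not overlap and were lower, against 28.6% of all genes, and 0 that were higher, against 10.5%. In the table of Type 1 libraries alone, 16381 of 29708 genes passed, among them 17 of 39 members tested, 2 higher and 15 lower.

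Ccl22 had 11.2, 14.5 and 1.72 normalized counts in Type 1 TAM depleted tumours, against 28.9, 63.2, 43.7, 25.6 and 45.1 in Type 1 Control tumours, without overlap (log2 fold change -2.33 ± 0.66, SE, limma-trend adjusted p = 0.103). For Ccr2 the values were 19.7, 31.5 and 12.6, against 58.9, 58.9, 66.2, 66.3 and 54.1, again without overlap (log2 fold change -1.56 ± 0.56, SE, limma-trend adjusted p = 0.105). All depleted libraries are low in background here and all controls high. Per kilobase, Ccl22 and Ccr2 passed the sensory receptor percentile in 10 and 8 of 16 libraries.

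Cxcl16 had 47.7, 111 and 17.8 normalized counts in Type 1 TAM depleted tumours, against 65.1, 35.9, 46.2, 72.4 and 70.4 in Type 1 Control tumours, with the controls inside the depleted range (log2 fold change -0.29 ± 0.53, SE, limma-trend adjusted p = 0.705). Cxcr4 had 129, 516 and 156, against 224, 132, 73.7, 136 and 121, with depleted 2 highest of all tumours (log2 fold change 0.75 ± 0.55, SE, adjusted p = 0.340). Ccl25 had 455, 509 and 335, against 317, 281, 284, 372 and 332 (log2 fold change 0.43 ± 0.30, SE, limma-trend adjusted p = 0.315). Elavl1, which shares exon bases with Ccl25, had a log2 fold change of 0.64 (limma-trend adjusted p = 0.290). Ccl27a had 209, 367 and 152, against 97.1, 141, 141, 73.9 and 166, so only depleted 3 fell within the control range (log2 fold change 0.93 ± 0.49, SE, limma-trend adjusted p = 0.203).

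Depleted 3 was the lowest Type 1 tumour for several ligands. Its Cxcl9 was 4.58 normalized counts, against 302 and 373 in the other depleted tumours and 137, 63.2, 35, 25.6 and 72.2 in Type 1 Control tumours. Its Cxcl10 was 17.2, against 112 and 162 in the other depleted and 47.4 to 127 in control tumours, and Cxcl11 had no read. The same tumour had the lowest sum of the 12 macrophage and microglia markers of all 16 (1253) and of T cell markers (26.9), while it was 6th in the 6 microglia markers (1447). Its Ccl12 was 63.0, against 3.93 and 4.84 in the other depleted tumours and 10.8 to 52.5 in controls. In the separate Type 1 table Cxcr3, the receptor of Cxcl9, had 7, 10 and 0 reads in depleted and 9, 16, 7, 4 and 13 in control tumours.

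The difference between the depletion responses of Type 2 and Type 1 was tested directly. By limma-trend 0 genes passed (0%), with 4 members at an unadjusted p under 0.05 (3 lower, where 4.87% of all genes were, and 1 higher, where 5.2% were), and in limma-voom 1 gene passed, no member. The lowest p among members belonged to Ccl25, with a difference of -1.50 ± 0.42 on the log2 scale (SE, limma-trend adjusted p = 0.433). Cxcr4 differed by -2.34 ± 0.77 (adjusted p = 0.462), Cxcl16 by -2.10 ± 0.73 (adjusted p = 0.468) and the mucosal ligand Ccl28 by 2.01 ± 0.92 (SE, limma-trend adjusted p = 0.494). Of the genes that share exon bases with these members, Zmynd15 (with Cxcl16) differed by -2.25 (limma-trend adjusted p = 0.462). Elavl1 (with Ccl25) differed by -0.57 (limma-trend adjusted p = 0.660). For no member did the test show that the responses differ.

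Between Type 2 and Type 1 tumours without depletion, 0 members passed by limma-trend and 0 in limma-voom, with 3.09% of all genes called by limma-trend at an adjusted p under 0.05 (603 higher and 216 lower). With quantile normalization 1079 genes were higher and 725 lower, and with upper quartile scaling 626 and 446.

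Of the 40 members, 32 had a positive log2 fold change (median 0.37, beside -0.23 over all genes tested), 10 of them at an unadjusted p under 0.05 (8.47% of all genes), and 1 was lower at that p (5.28%). Without Type 2 Control 1, 24 members were higher and 16 lower. The number higher was 26 without Type 2 Control 3, 27 in limma-voom and 34 with quantile normalization. Groups did not overlap for 9 members that were higher (Ccl2, Ccl5, Ccl7, Ccl8, Ccr2, Ccr7, Cxcl9, Cxcl11 and Cxcl16, where 5.03% of all genes were) and 1 that was lower (Ccl27a, 1.93%). The monocyte attractants were higher in 9 of 9 cases (median 1.36) and the Cxcr3 ligands in 3 of 3 (median 1.97), under both other scalings too.

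Ccl8 had 42.9, 234, 47.2 and 21.0 normalized counts in Type 2 Control tumours, against 5.17, 5.74, 12.5, 3.02 and 14.4 in Type 1 Control tumours. Type 2 was higher in every tumour (log2 fold change 2.83 ± 0.82, SE, limma-trend adjusted p = 0.0771). Ccl2 averaged 59.4 ± 39.2 and 19.2 ± 2.60 (SD, n = 4 and 5), and differed by 1.41 ± 0.48 on the log2 scale (SE, limma-trend adjusted p = 0.144). For Ccl7 the log2 fold change was 1.62 ± 0.50 (limma-trend adjusted p = 0.0968), and for Ccl5 it was 2.21 ± 0.76 (adjusted p = 0.154).

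Cxcl9 had 257, 1416, 335 and 768 normalized counts in Type 2 Control tumours and at most 137 in a Type 1 Control tumour, a difference of 3.27 ± 1.25 on the log2 scale (SE, limma-trend adjusted p = 0.216). Cxcl16 averaged 202 ± 93.6 in Type 2 Control and 58.0 ± 16.1 in Type 1 Control tumours (log2 fold change 1.72 ± 0.48, SE, limma-trend adjusted p = 0.0670). Zmynd15, which shares exon bases with Cxcl16, had a log2 fold change of 1.19 (limma-trend adjusted p = 0.255). Ccl27a, the exception, averaged 48.9 ± 19.3 and 124 ± 37.3 (log2 fold change -1.37 ± 0.45, SE, limma-trend adjusted p = 0.128). Among high-background libraries alone, 2 Type 2 Controls against all Type 1 Controls, Ccl8 and Cxcl9 passed, as did 1057 of 26463 genes (limma-trend adjusted p = 0.0418 and 0.0295). Quantile normalization called 7 members, 6 higher and 1 lower, among them Cxcl16, and 1804 genes in all. These controls also serve in the depletion comparisons above, so the comparisons share tumours. Marker sums separated the controls without overlap for T cells, at 385 to 604 in Type 2 Control and 222 to 335 in Type 1 Control tumours, and for monocytes, at 3117 to 14029 and 1303 to 2357. Glioma cell markers, at 4690 to 23149 in Type 2 Control and 633 to 3836 in Type 1 Control tumours, the 2 neutrophil markers, at 175 to 237 and 68.2 to 160, and endothelial markers, at 1240 to 2099 and 966 to 1158, did so too. The macrophage and microglia markers overlapped slightly, at 3159 to 8811 in Type 2 Control and 1543 to 3277 in Type 1 Control tumours. Their part in these differences was not tested.

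Between the depleted tumours, 0 members passed in Type 2 against Type 1, with 0.185% of all genes called (15 higher and 34 lower, or 5 and 26 with quantile normalization), and 3 members had an unadjusted p under 0.05 (1 higher, where 5.07% of all genes were, and 2 lower, where 7.04% were). Here 31 of 40 members were higher (median 0.72, beside 0.11 over all genes tested), or 23 with background set as a term. Without Type 1 TAM depleted 3 the direction was lost, with 19 higher and 21 lower (median -0.03), and without Type 2 TAM depleted 4 the median was 0.25. Ccl2 had 26.2, 78.9, 18.3 and 45.9 normalized counts in Type 2 TAM depleted tumours, against 6.18, 20.6 and 11.5 in Type 1 TAM depleted tumours, with depleted 3 of Type 2 inside the Type 1 range (log2 fold change 1.59 ± 0.54, SE, limma-trend adjusted p = 0.263). Ccl25 averaged 237 ± 50.5 and 433 ± 89.3 (SD, n = 4 and 3), and was the member whose groups did not overlap (log2 fold change -0.87 ± 0.32, SE, limma-trend adjusted p = 0.286), where 5.77% of all genes were lower and 3.3% higher without overlap. Cxcr4 averaged 97.2 ± 55.3 and 267 ± 216, which is -1.35 ± 0.58 on the log2 scale (SE, limma-trend adjusted p = 0.362).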

How the data were processed

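RNA of 16 tumours was sequenced after SMART-Seq v4 library preparation, per the labels' protocols. This kit does not mark strand. STAR 2.7.8a, DESeq2 and the build GRCm38 are named in the submitters' processing notes, with no counting tool. The authors deposited 3 tables on a variance-stabilized log2 scale, of all libraries and of each tumour kind, where linear normalized counts had been assumed in the design. The deposited log2 values were inverted to normalized counts, which were whole multiples of 1 read in 100% of values (tolerance 0.05 reads). All columns were used (0 left out).

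Genes with 10 or more normalized counts in at least 3 libraries (26463, all 40 members included) were tested with limma-trend (limma 3.58.1, R 4.3.3) on log2(normalized count + 1), in 1 fit of 4 group means (12 residual degrees of freedom). The pseudocount understates fold changes of low genes. Tests were 2-sided, at a threshold of 0.05 after Benjamini-Hochberg adjustment across all of these genes. Steps were tested on simulated data. A count model was run only as limma-voom on recovered reads.

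Of 41 genes that match the symbols, 1 is not reported here. The members, lists and tests were chosen with earlier results of these data known. Members past the threshold in any of 5 contrasts, the 20 highest by mean and preset ligand and receptor pairs were named (31), and the rest are given by range and counts. High background means over 2500 receptor gene reads per M (mega). The fits were repeated with pseudocounts of 0.5 and 8, without the filter and at 50, on the values as deposited, with quantile and upper quartile scaling, limma-voom, a replicate block, background sets alone or as a term, and each library left out. Replicates differed by more than counting noise in every pair (chi-square over its degrees of freedom at least 9.07). Reads carry no molecular identifiers, so depth limits counting error only. Coordinates and exon overlaps are from GENCODE vM21 (GRCm38, 1-based), and promoters from RefSeq (GRCm38.p6).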

Additional observations from a re-analysis of the deposited data

Results flagged for a closer look

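In 5 of 93 groups of 4 or 5 tumours checked over the named members (5.38%), 1 tumour stood apart from the rest of its group. The measure was its gap to the nearest tumour over the range of the group, both on the scale of log2(normalized count + 1). The values printed below are normalized counts before the log. Chance gives about 1 in 20. Cxcl10 was 576 normalized counts in Type 2 TAM depleted 2, against 60.4 to 72.1 in the other depleted tumours (gap over range 0.922). Cxcl10 was also high in Type 1 Control 1, with 127 against 47.4 to 56.2 (0.827). Ccl2 was 118 in Type 2 Control 1, against 36.7 to 43.6 in the other controls (0.854). That library has the fewest reads, 4.21 M, and the highest background. Cxcl12 was 33.4 in Type 2 Control 2, against 125 to 132 in the other controls (0.961). Ccr9 was 36.2 in Type 1 Control 1, against 67.5 to 81.8 in the other controls (0.763).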

How the results depend on the processing

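In the table of the tumour kind alone and in fits with background set as a term outside Type 2 depletion, the alternatives were chosen after seeing the data. Counts below are genes called, then members called. After TAM depletion in Type 2 (956 genes, 3 members) the counts were 2635 and 10 with background set as a term, 573 and 0 among high-background libraries, 0 and 0 among low-background libraries, and 0 and 0 in the table of Type 2 libraries alone. They were 351 and 4 in limma-voom, 1143 and 6 with the values as deposited, 1111 and 6 with a pseudocount of 8, 1292 and 6 with upper quartile scaling, 1378 and 5 with a filter of 50, and 1213 and 5 with quantile normalization. After depletion in Type 1 (0 genes, 0 members), the table of Type 1 libraries alone called 16381 genes and 17 members. For the difference of responses (0 genes) the counts were 166 genes with background set as a term and 1 in limma-voom. Between controls (819 genes, 0 members) they were 1804 genes and 7 members with quantile normalization, 314 and 0 in limma-voom, 876 and 2 with the values as deposited, 853 and 2 with a pseudocount of 8, 1057 and 2 among high-background libraries, and 1053 and 1 with a filter of 50. Between depleted tumours (49 genes) they were 215 with background set as a term, 24 among low-background libraries and 31 with quantile normalization. The cause was not tested.

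With the replicate block, 297 genes and 2 members passed after depletion in Type 2, 1 gene for the difference of responses, 347 genes and 0 members between controls, and 16 genes between depleted tumours. Replicate numbers were shared by groups, and deviations of same-numbered tumours correlated from -0.67 to 0.50 over 21 pairs. In Type 2 the pairs within a background set were positive (0.50 for replicate 2 and 0.30 for replicate 3). Pairs across the sets were negative (-0.67 for replicate 1 and -0.60 for replicate 4). With background in these deviations, they cannot show whether a number marks a shared batch, animal or culture. Leaving out 1 library gave 100 to 1259 genes and 0 to 5 members after depletion in Type 2, 0 to 2 genes and 0 members in Type 1, 0 genes and 0 members for the difference, 510 to 1141 genes and 0 to 2 members between controls, and 12 to 234 genes and 0 members between depleted tumours. No named member that passed changed sign under any of these alternatives. At 4.21 M reads 1 read is worth 3.57 normalized counts, so low members in Type 2 Control 1 rest on few reads.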
